A study of Mus musculus with 4 samples.

Results

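The Rhox genes are homeobox genes that lie side by side on the mouse X chromosome. Of 7 of them considered here, Rhox1, Rhox6, Rhox9, Rhox10, Rhox11 and Rhox13 had a value in the expression table of 37310 genes, and the expression of Rhox5 was not analysed here. They were chosen by gene symbol, with the readout in view: Rhox6 and Rhox9 had lower values in cells labelled Bmal1-/- than in wild-type cells, whereas several other germline genes had higher values. The levels of these 6 genes and their differences between the cell lines are therefore descriptions and carry no test. Another 27 Rhox genes or gene copies of the table, which were not picked on their values, are given beside them.

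The values come from mRNA-seq of mouse embryonic stem cells (mESCs), pluripotent cells of the early embryo kept in culture. The cells were of the JM8 line, from the C57BL6/N mouse strain, and both lines grew feeder-free on gelatin in 2i + LIF medium, in which PD0325901 (1 µM) inhibits Mek, CHIR99021 (3 µM) inhibits Gsk3 and the cytokine LIF supports self-renewal. There were 2 wild-type libraries and 2 labelled Bmal1-/-, described by the study as biological replicates, and the mutant line is 1 clone edited with CRISPR-Cas9 in both alleles of Bmal1, a transcription factor of the circadian clock. Each label therefore stands for 1 line, and the Bmal1 mutation cannot be told apart from any other difference between these lines.

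Each library held between 21504265 and 23329034 reads counted on genes. The deposited values are reads divided by a scaling factor of the library (trimmed mean of M values, TMM), and 3 reads correspond to a normalized value of 2.82 to 3.19. Arntl, the symbol under which Bmal1 is listed, was at 678 and 733 in wild-type against 556 and 590 in the libraries labelled Bmal1-/-. Its mRNA therefore does not identify the genotype in these libraries. For its Bmal1-/- cells the study reports that RT-qPCR did not detect Bmal1 mRNA and that a Western blot showed no detectable Bmal1 protein. The libraries are named by their labels, and "in Bmal1-/-" below means in the libraries so labelled. In bulk RNA, fewer cells that express a gene and less RNA per cell cannot be told apart.

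Rhox stands for reproductive homeobox. The cluster encodes transcription factors of the paired-like class that are known mainly from the placenta, the testis, the ovary and developing germ cells, and in somatic lineages of the embryo the genes are kept silent by DNA methylation. Rhox6 and Rhox9, first described as the placental homeobox genes Psx1 and Psx2, are close paralogs, and the Rhox2, Rhox3 and Rhox4 genes have been multiplied into series of near-identical copies.

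The 33 Rhox genes and copies listed in the table span chrX:34753799-35483143 (729 kb, NCBIM37, the assembly that mm9 names). Rhox1 (chrX:34753799-34762253, minus strand) is at one end and Rhox13 (chrX:35474396-35483143, plus strand) at the other. Rhox6 (chrX:35180087-35183034, plus strand) and Rhox9 (chrX:35252274-35255044, minus strand) point towards each other across 69.2 kb. Rhox11 (chrX:35429771-35438316, minus strand) lies wholly within the annotated span of Rhox10 (chrX:35419652-35443251, plus strand), and since the strand setting of the counting is not given in the sources used here, reads of these overlapping genes cannot be assigned with certainty.

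The homeobox, the 180 bases that encode the 60 residues of the DNA-binding homeodomain, is shown for Rhox6 and Rhox9 because the results turn on this pair and on how far reads can distinguish them. It is split over 3 coding exons, into parts of 92, 46 and 42 bases, in all 6 genes. In Rhox6 these parts lie in exons 2, 3 and 4 at chrX:35180911-35181002, chrX:35181592-35181637 and chrX:35182801-35182842 of NCBIM37. In Rhox9 they lie in exons 2, 3 and 4, read from the minus strand, at chrX:35254129-35254220, chrX:35253457-35253502 and chrX:35252435-35252476. The sequences are those of the GENCODE vM1 transcripts, written 5′ to 3′ on the coding strand, and capitals mark the positions at which they differ.
Rhox6: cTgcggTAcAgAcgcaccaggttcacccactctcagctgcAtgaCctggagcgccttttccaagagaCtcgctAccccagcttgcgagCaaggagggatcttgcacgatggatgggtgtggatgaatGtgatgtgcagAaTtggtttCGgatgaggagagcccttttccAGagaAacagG
Rhox9: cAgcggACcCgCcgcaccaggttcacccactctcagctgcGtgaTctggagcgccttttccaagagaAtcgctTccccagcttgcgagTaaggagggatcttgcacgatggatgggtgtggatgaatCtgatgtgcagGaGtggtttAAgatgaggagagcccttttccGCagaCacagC

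The pair differed at 19 of 180 homeobox bases, so that 89.4% were identical. The other pairs among the 6 genes shared 47.2% to 61.7% of the homeobox bases. Over the whole coding sequence, 684 bases in each gene, Rhox6 and Rhox9 were identical at 620 bases (90.6%), against 60.04% to 71.2% of aligned bases for the other pairs.

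To see how well single reads of 75 bases could tell the genes apart, every 75-base window of each gene's transcripts was looked up in all protein-coding transcripts of the same annotation. The libraries held paired reads, and placement of a pair by its other end was not considered. For Rhox6, 730 of 936 windows (78.0%) occurred in no other gene, and the other 206 were shared with Rhox9 and with nothing else. For Rhox9, whose 2 annotated transcripts hold more bases than the 1 of Rhox6, 2422 of 2628 windows (92.2%) were its own. The other 206 were shared with Rhox6. All windows of Rhox1, Rhox10, Rhox11 and Rhox13 were unique, whereas the copies of Rhox2, Rhox3 and Rhox4 had between 2.497% and 70.6% unique windows, so that counts of a single copy are uncertain.

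**Figure D1:**
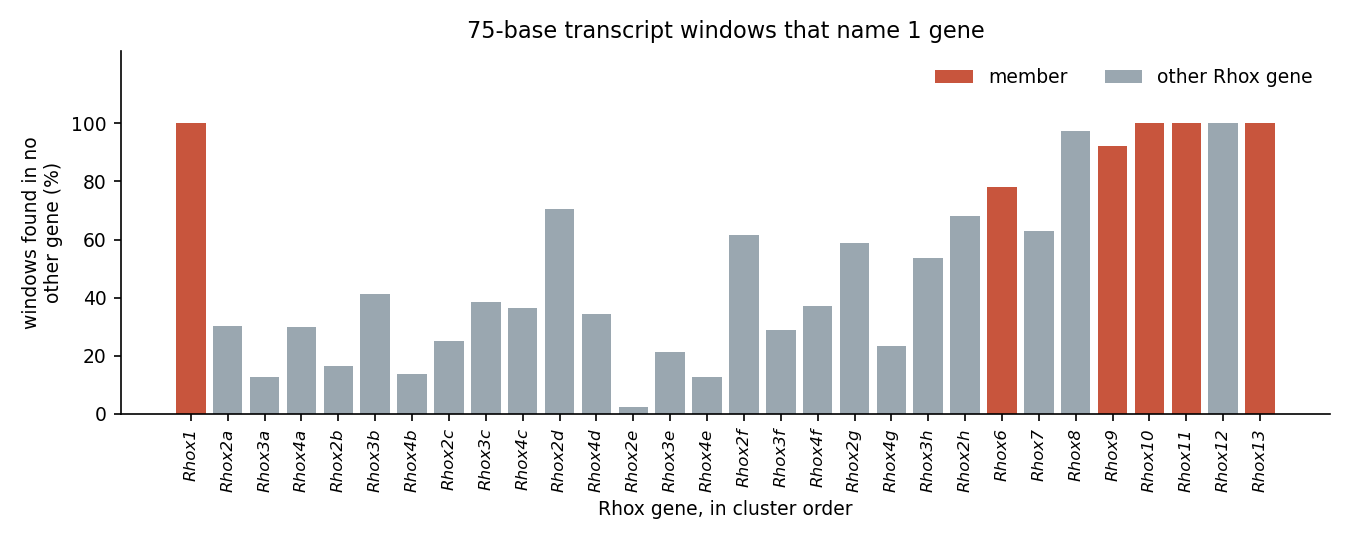
Share of 75-base transcript windows found in no other protein-coding gene, in percent (vertical axis), for each Rhox gene with a protein-coding transcript in cluster order (horizontal axis); red bars are the genes described in detail and grey bars the other Rhox genes. Rhox6 stands at 78.0% and Rhox9 at 92.2%, and Rhox2e has the lowest bar, at 2.497%.

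Rhox6 and Rhox9 were lower in both libraries labelled Bmal1-/- than in both wild-type libraries. Rhox6 was at normalized values of 74.8 and 71.2 in wild-type, and 24.4 and 21.0 in Bmal1-/-. The corresponding reads numbered 71, 67, 26 and 22. The 2 wild-type libraries lay close together and far above the others, without overlap.

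Rhox9 had 69.5 and 64.8 in wild-type, and 16.9 and 11.4 in Bmal1-/-. Its reads numbered 66, 61, 18 and 12. Here too the groups did not overlap, and the wild-type libraries were the high ones.

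In group means, Rhox6 went from 73.0 ± 2.56 to 22.7 ± 2.44 (SD, n = 2 each), which leaves 31.1% of the wild-type mean. Rhox9 went from 67.2 ± 3.35 to 14.2 ± 3.87 (SD, n = 2 each), or 21.1% of the wild-type mean. On the log2(value + 1) scale, on which all log2 fold changes here are given as Bmal1-/- over wild-type, the differences were -1.65 for Rhox6 and -2.19 for Rhox9.

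Since the pair shares sequence, its reads were also summed. The sum was 144 and 136 in wild-type, and 41.3 and 32.4 in Bmal1-/-. Its mean went from 140.1 ± 5.91 to 36.9 ± 6.30 (SD, n = 2 each), or 26.3% of the wild-type mean, a log2 difference of -1.91. A sum does not depend on how reads were divided between these paralogs, and its log2 difference lay between those of Rhox6 and Rhox9.

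The share of Rhox6 in the reads of the pair was 51.8% (exact 95% binomial interval 43.1% to 60.4%) and 52.3% (43.3% to 61.2%) in the wild-type libraries. In the libraries labelled Bmal1-/- it was 59.1% (43.2% to 73.7%) and 64.7% (46.5% to 80.3%). The last values rest on 44 and 34 reads, their intervals contain the wild-type shares, and a shift in the balance between Rhox6 and Rhox9 was not detectable at this depth. These intervals cover counting error only.

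Rhox1, at one end of the cluster, had values that overlapped between the groups. It had 51.6 and 69.0 in wild-type, and 57.3 and 51.5 in Bmal1-/-, from 49 to 65 reads. The higher library labelled Bmal1-/- exceeded the lower wild-type library. Its mean was 60.3 ± 12.3 in wild-type and 54.4 ± 4.11 in Bmal1-/- (SD, n = 2 each), a log2 difference of -0.13 that turned to 0.07 without wild-type replicate 2.

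Rhox13, known from spermatogonia and fetal germ cells, was near the limit of detection. It had 7.37 and 9.56 in wild-type, and 4.70 and 6.68 in Bmal1-/-, from 5 to 9 reads. The groups did not overlap, but the nearest libraries of the groups each held 7 reads.

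Rhox10, a gene of spermatogonial stem cells, was listed at 0 in both wild-type libraries and had 1 read in each library labelled Bmal1-/-. Rhox11, expressed in the testis, was at 0 in all 4 libraries. Both stayed under 3 reads in every library, so no fold change is given for them.

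**Figure D2:**
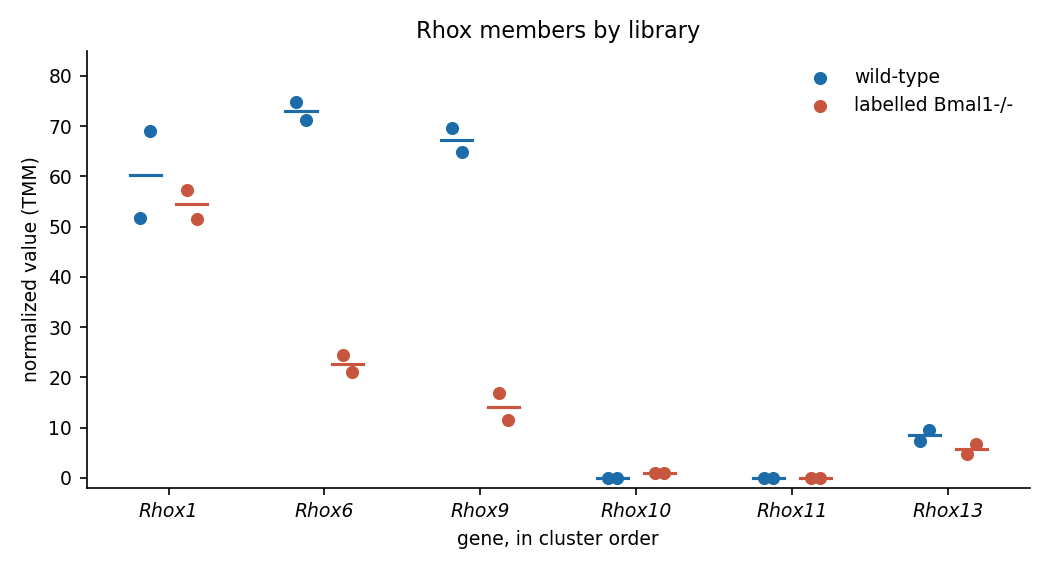
Normalized values (TMM, vertical axis) of the 6 Rhox genes in cluster order (horizontal axis), with 1 point per library and a line at each group mean; blue is wild-type and red is labelled Bmal1-/-. The wild-type points of Rhox6 and Rhox9 sit between 64.8 and 74.8 and the red ones between 11.4 and 24.4, while those of Rhox1 overlap.

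The calls were read against the whole table. Of the 6 genes, 3 (Rhox1, Rhox6 and Rhox9) reached a mean value of 10 over the 4 libraries, the minimum for the genes compared by limma, a linear model with variances moderated across genes. A gene was called when its absolute log2 fold change exceeded 1 and its Benjamini-Hochberg adjusted p was under 0.05 over all 14510 genes. By this rule 2 of the 3, Rhox6 and Rhox9, were lower and 0 were higher, beside 1.45% of all tested genes called lower. Both libraries labelled Bmal1-/- lay below both wild-type libraries for the same 2 genes, beside 41.4% of all tested genes, and for 34.6% of tested genes they lay above. Because Rhox6 and Rhox9 were selected on this contrast, nothing is read from these counts.

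Levels per kb of annotated exon, a scale that rests on the annotated length, were ranked among the 33 Rhox genes and copies with a value. Rhox5 was not among these, so its rank is not known. Of the genes ranked, Rhox6 had the highest level in wild-type mESCs, with a mean of 72.3 ± 2.54 (SD, n = 2). Rhox1 followed at 68.3 ± 14.0, and the ranges of these neighbours overlapped. Rhox9 (26.0 ± 1.29), Rhox2a (19.4 ± 2.54), Rhox13 (9.68 ± 1.77) and Rhox4a (3.23 ± 1.29) came next, each apart from its neighbour in both libraries. In the libraries labelled Bmal1-/-, Rhox1 was first at 61.6 ± 4.65 per kb and stood apart from the rest. There Rhox6 (22.5 ± 2.41) overlapped with Rhox2a (20.7 ± 5.32), and Rhox13 (6.50 ± 1.60) overlapped with Rhox9 (5.48 ± 1.495). Rhox9, at rank 3 in wild-type, was thus at rank 5 on this scale, not apart from Rhox13. Its annotated exon length was 2585 bases against 1010 for Rhox6, although both have a coding sequence of 684 bases. Which annotated transcripts the cells made was not examined, so the rank of Rhox9 is uncertain. Before division by length, Rhox9 had 16.9 and 11.4 in Bmal1-/-, and Rhox13 had 4.70 and 6.68.

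Among the 27 Rhox genes that were not chosen, Rhox2a was the only one above the minimum mean of 10. It had 17.9 and 14.9 in wild-type, and 20.7 and 14.3 in Bmal1-/-, so that the groups overlapped. Its log2 fold change was 0.07 (standard error, SE, 0.34, adjusted p = 0.877 by limma), and over 16 alternatives it ranged from -0.24 to 0.32. Only 30.3% of its 75-base windows were unique, so these reads can come from other Rhox2 copies.

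Summed over copies, the Rhox2 genes (8 copies) had 25.3 and 21.2 in wild-type, and 31.9 and 23.8 in Bmal1-/-. The Rhox4 genes (7 copies) had 16.9 and 10.6 in wild-type, and 11.3 and 10.5 in Bmal1-/-, of which Rhox4a held 9.48, 5.31, 6.58 and 5.72. Both sums overlapped between the groups. Rhox3, with 9 copies, had at most 1 read in any library over all copies together.

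Of the 27 genes, 12 were listed at 0 in every library, namely Rhox2e, Rhox3a, Rhox3b (listed under 2 identifiers), Rhox3-ps, Rhox3c, Rhox3e, Rhox3f, Rhox3g-ps, Rhox4f, Rhox8 and Rhox12. Another 11 had a maximum of 1 to 3 reads, namely Rhox2b, Rhox2c, Rhox2g, Rhox2h, Rhox3h, Rhox4b, Rhox4c, Rhox4d, Rhox4e, Rhox4g and Rhox7. The 4 with more were Rhox2a, Rhox2d, Rhox2f and Rhox4a. Without Rhox6 and Rhox9, the Rhox genes with a value summed to 103 and 110 in wild-type, and to 108 and 94.4 in Bmal1-/-. These groups overlapped, and Rhox5 is not in the sum. With that pair, and again without Rhox5, the sum was 248 and 246 in wild-type, and 149 and 127 in Bmal1-/-.

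**Figure D3:**
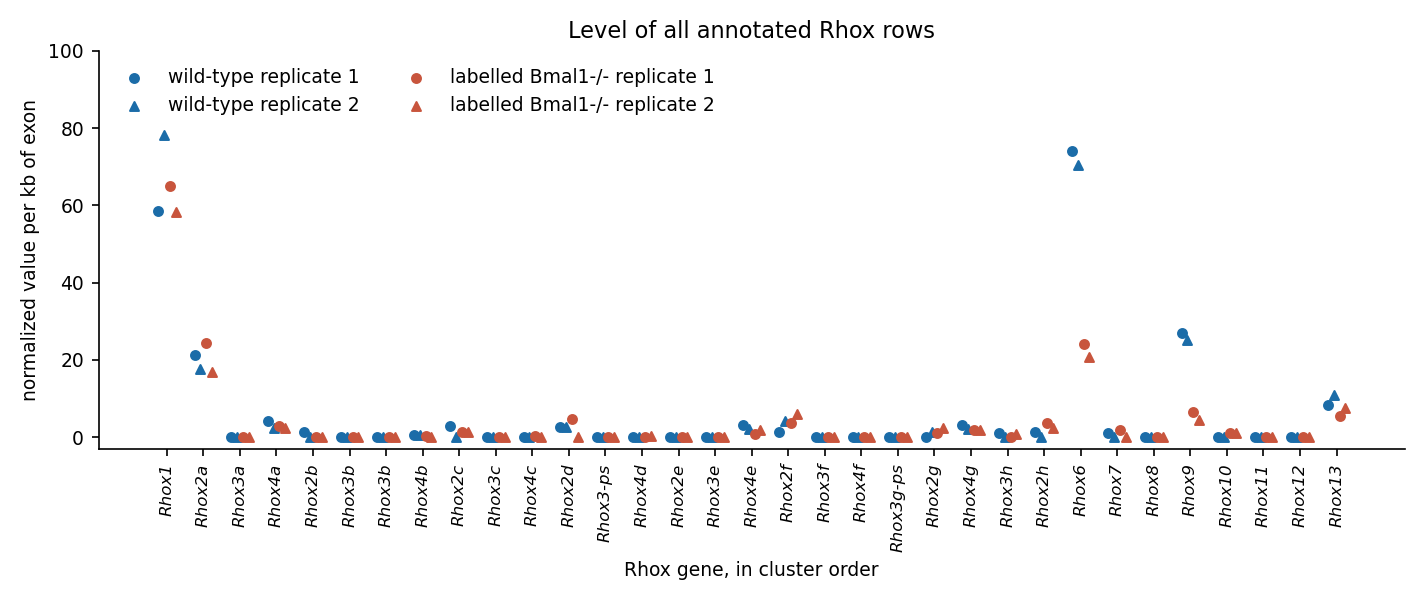
Normalized value per kb of annotated exon (vertical axis) of all 33 Rhox genes and copies in cluster order (horizontal axis), with 1 marker per library; blue is wild-type and red labelled Bmal1-/-. Rhox1, Rhox6 and Rhox9 rise above the rest in wild-type, with means of 68.3, 72.3 and 26.0, and the red markers of Rhox6 and Rhox9 lie below the blue ones.

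The chromosomal surroundings were examined through the 10 tested genes nearest to the cluster on each side. Gm6310, the 1 tested gene inside the cluster that is no Rhox gene, was not included. The flanking genes on the side of Rhox1 lay within 340 kb of the cluster, whereas those on the side of Rhox13 reached 3930 kb, at Xiap. By the rule of fold change and adjusted p, 0 of these 20 genes were called with limma and 0 with DESeq2, and 1 with the quasi-likelihood test of edgeR. By limma the rule called 5.75% of all tested genes higher and 1.45% lower, so a count of 0 among 20 says little. At an unadjusted p under 0.05 there were 14 by limma, 14 by edgeR and 8 by DESeq2. Without the fold threshold, 5 genes were higher and 8 lower by limma at an adjusted p under 0.05 (25.0% and 40.0%). Among all tested genes, 24% were higher and 28.6% lower. In all 13 of the 20 passed by limma, 14 by edgeR and 4 by DESeq2, so the number depended on the test. Over all 14510 tested genes, edgeR passed 3818 higher and 3864 lower, and DESeq2 2690 and 2536. The median log2 fold change of the 20 flanking genes was -0.17, against -0.03 for all tested genes. For the 513 tested X-linked genes other than Rhox genes it was 0.01.

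The 5 flanking genes with the largest absolute log2 fold changes fell on both sides of 0. Gm7598 had 0.94 (SE 0.33, adjusted p = 0.0203), Xiap, an inhibitor of caspases, had 0.43 (SE 0.05, adjusted p = 5.60e-07), and both were higher. C1galt1c1, a chaperone for O-glycosylation, had -0.49 (SE 0.14, adjusted p = 0.0059), and Gm14567 had -0.56 (SE 0.14, adjusted p = 0.00177), and both were lower. The small nucleolar RNA gene Snora69 had -0.73 (SE 0.34, adjusted p = 0.0728 by limma). It lies within the annotated span of Rpl39, another flanking gene on the same strand. Whether its reads come from a transcript of its own was not tested. All adjusted p are from limma with Benjamini-Hochberg adjustment.

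The nearest tested genes outside the cluster, named for their position, were Rnf113a1, 21.3 kb from the cluster, and Zbtb33, 59.8 kb from its other end. Rnf113a1 had a log2 fold change of -0.27 (SE 0.15, adjusted p = 0.13 by limma). Zbtb33 encodes Kaiso, a protein that binds methylated DNA, and was higher, with 0.33 (SE 0.10, adjusted p = 0.00702 by limma).

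**Figure D4:**
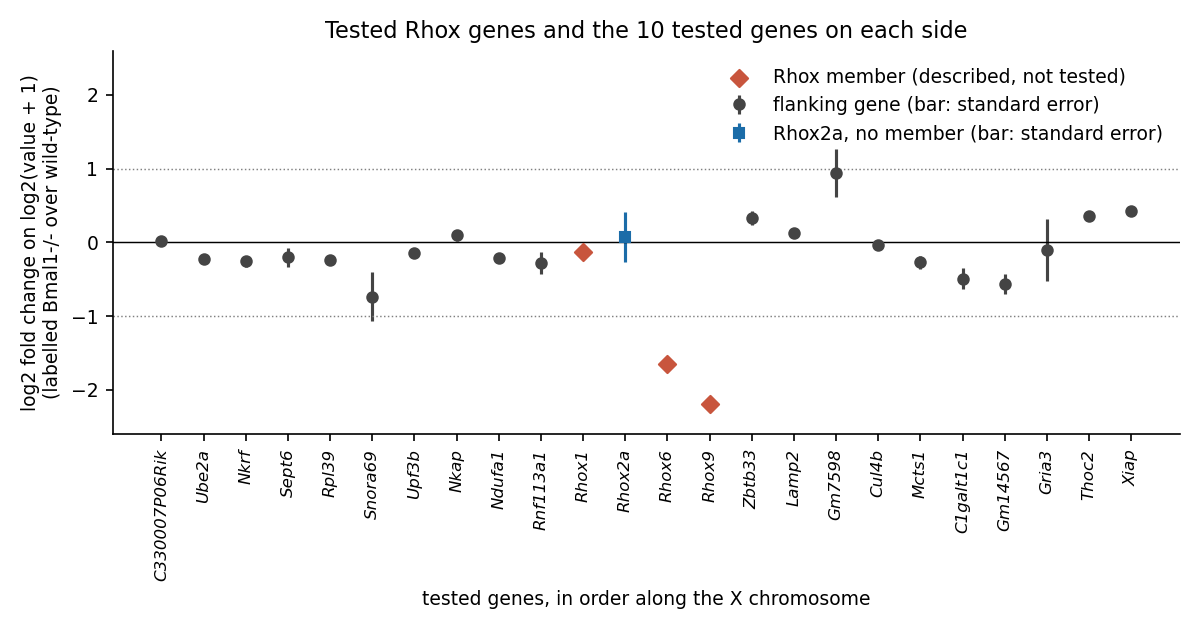
Log2 fold change on log2(value + 1), labelled Bmal1-/- over wild-type (vertical axis), for the tested Rhox genes and the 20 flanking genes. They stand in their order along the X chromosome (horizontal axis, not to distance), and Gm6310, inside the cluster, is left out. Grey points are flanking genes with standard errors, the blue square is Rhox2a with its standard error, red diamonds are Rhox1, Rhox6 and Rhox9, shown without errors because they are described and not tested, and dotted lines mark a log2 fold change of 1 in each direction; Rhox6 at -1.65 and Rhox9 at -2.19 lie below the lower dotted line, and the 20 flanking genes between -0.73 and 0.94.

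Because DNA methylation and the repressors of germline genes are known to hold Rhox genes silent, the mRNA of 24 such factors was looked at, a list that also holds the Tet enzymes, which oxidise methylated cytosine. All 24 were tested. The rule of fold change and adjusted p called 0 of them by limma, by edgeR and by DESeq2. By limma it called 5.75% of all tested genes higher and 1.45% lower, so a count of 0 among 24 says little. At an unadjusted p under 0.05 there were 18 by limma, and without the fold threshold 12 were higher and 5 lower (50.0% and 20.8%), beside 24% and 28.6% of all tested genes. In all 17 passed an adjusted p under 0.05 by limma, 18 by edgeR and 14 by DESeq2. The median log2 fold change of the list was 0.10, against -0.03 for all tested genes.

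The largest values were those of Dnmt3l and Dnmt3a, which act in de novo DNA methylation, and of Tet2. Dnmt3l had 389 and 321 in wild-type, and 629 and 623 in Bmal1-/-, a log2 fold change of 0.82 (SE 0.09, adjusted p = 1.05e-07 by limma). Dnmt3a had 793 and 774 in wild-type, and 1175 and 1179 in Bmal1-/-, a log2 fold change of 0.59 (SE 0.06, adjusted p = 4.41e-08). For both genes the groups did not overlap.

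Tet2 was higher by 0.65 and Tet1 by 0.32 on the log2 scale. Mga, the scaffold of a Polycomb complex that represses germline genes, was higher by 0.38, and the methyl-CpG binding protein Mbd1 by 0.36. Suv39h1, a histone H3K9 methyltransferase (0.23), Kdm1a, a histone demethylase (0.15), Hells, a chromatin remodeller needed for DNA methylation (0.13), Uhrf1, a partner of Dnmt1 (0.13), and Setdb1, another H3K9 methyltransferase (0.10), completed the 12 higher genes with Zbtb33. For Setdb1 the adjusted p was 0.0499.

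Lower were the de novo methyltransferase Dnmt3b (-0.26, SE 0.05, adjusted p = 0.000216 by limma), Max, the partner of Mga (-0.23), Ehmt2, the H3K9 methyltransferase G9a (-0.22), the histone deacetylase Hdac1 (-0.15) and L3mbtl2, of the same complex as Mga (-0.13). Dnmt1, which maintains methylation, had -0.09 (SE 0.04, adjusted p = 0.0504 by limma). Ehmt1 (0.10), Rnf2 (0.09), E2f6 (-0.02), Trim28 (-0.05), Pcgf6 (-0.08) and Suv39h2 (-0.11) did not pass the threshold either. Of the 17 genes that passed, Dnmt3a, Dnmt3l, Tet1, Tet2, Max, Mga and Mbd1 did so under every alternative, and the other 10 exceeded 0.05 in at least 1. The direction for E2f6 and Trim28 turned under alternatives, among them equal library totals and quantile normalization.

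The Rhox genes were also set beside the other paired-like homeobox genes of the mouse. Of 38 such genes, 35 had a value and 16 were tested, of which 6 were called higher and 0 lower (37.5% and 0%), beside 5.75% of all tested genes called higher and 1.45% lower. The median log2 fold change was 0.32. Of the 6 genes called, Obox6, Crx and Crxos1 lie close together on chromosome 7, so their calls may not be separate events. Pitx3 reached the minimum mean only through the libraries labelled Bmal1-/-. The share of 37.5% is therefore not read as a rise of the whole class. The lowest log2 fold change among the 16 was -0.56, for Hesx1, beside the -2.19 of Rhox9 and the -1.65 of Rhox6. Just under the minimum mean, Otx2, a head and epiblast gene with a mean of 9.30, had 10.5 and 19.1 in wild-type, and 4.70 and 2.86 in Bmal1-/-. Its log2 difference of -1.70 was close to that of Rhox6. With the minimum mean set to 1 Otx2 was called lower (adjusted p = 0.0255 by limma), and with no filter it was not called (adjusted p = 0.0617 by limma).

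Obox6, an oocyte and early embryo gene, had 752 and 769 in wild-type, and 2199 and 2231 in Bmal1-/-, a log2 fold change of 1.54 (SE 0.05, adjusted p = 3.04e-15 by limma). Crx, known from photoreceptors, had 1.68 (SE 0.19, adjusted p = 2.69e-07), and its neighbour Crxos1 had 1.26 (SE 0.10, adjusted p = 1.06e-09). Pitx1, a hindlimb gene, had 1.84 (SE 0.21, adjusted p = 3.76e-07) and Prrx2, of mesenchyme, had 1.30 (SE 0.26, adjusted p = 0.000252).

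Pitx3, a gene of the lens and of dopaminergic neurons, had 2.11 and 5.31 in wild-type, and 23.5 and 17.2 in Bmal1-/-, with a log2 fold change of 2.25 (SE 0.48, adjusted p = 0.000499 by limma). Its wild-type libraries held 2 and 5 reads. Esx1, the X-linked paired-like gene of the placenta, had 37.9 and 41.4 in wild-type, and 69.5 and 42.9 in Bmal1-/-, a log2 fold change of 0.45 (SE 0.23, adjusted p = 0.111 by limma).

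**Figure D5:**
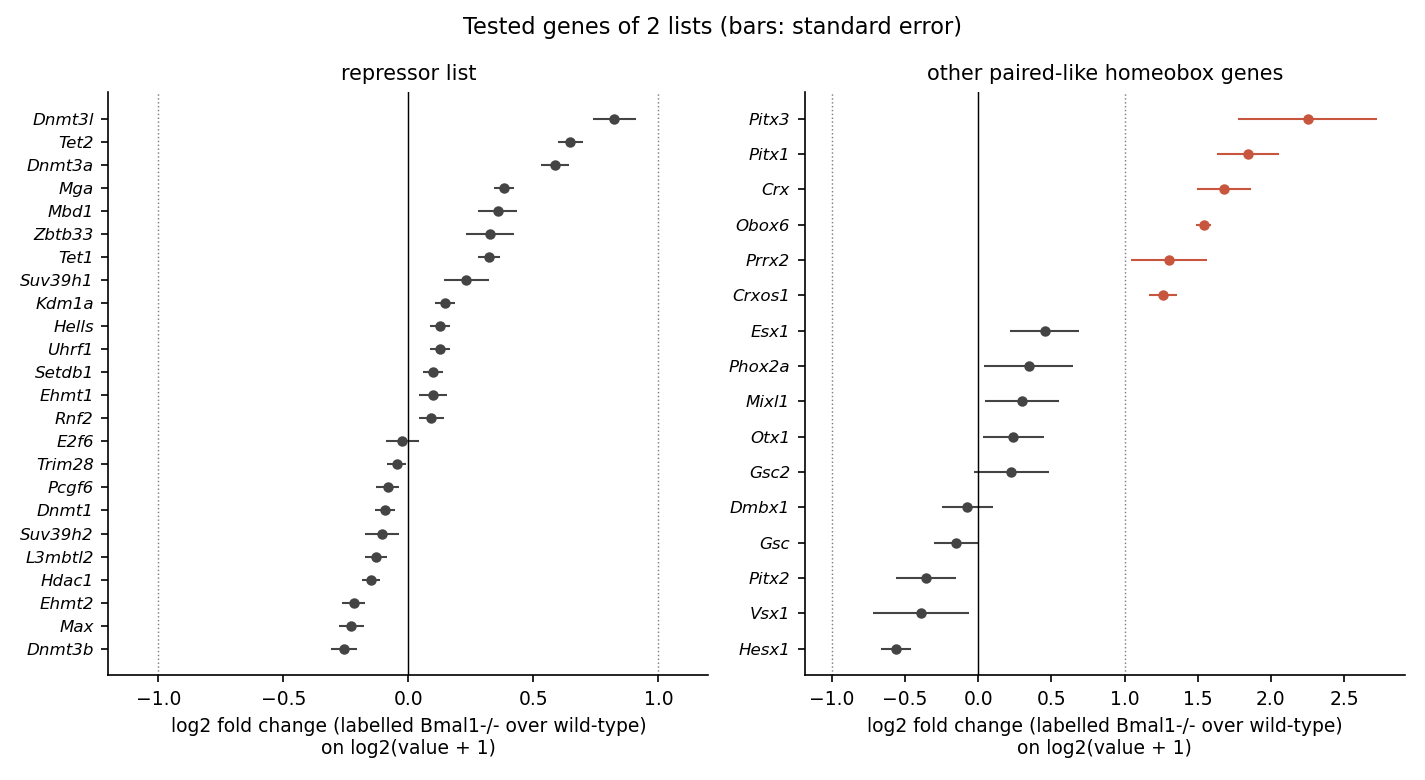
Log2 fold change on log2(value + 1), labelled Bmal1-/- over wild-type (horizontal axes), with standard errors, for the 24 factors of DNA methylation and germline-gene repression (left) and the 16 tested paired-like homeobox genes other than Rhox (right), sorted by value; red marks genes called by fold change and adjusted p, and dotted lines a log2 fold change of 1 in each direction. The left panel runs from -0.26 for Dnmt3b to 0.82 for Dnmt3l with 0 genes called, and the right one has 6 red points, all above 1.

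Germline genes entered the choice of the Rhox genes, so their counts are a description. Of 33 tested germline genes, 5 were called higher (Brdt, Dazl, Boll, Dpep3 and Rpl10l) and 0 lower, beside 5.75% and 1.45% of all tested genes, with a median log2 fold change of 0.40. Without the fold threshold 12 were higher and 4 lower (Nanos3, Ddx25, Rec8 and Ddx4), beside 24% and 28.6% of all tested genes. Of 21 tested X-linked genes of the germline and placenta, 4 were called higher (Tex13, Magea8, Magea5 and Usp26) and 2 lower (Mageb16 and Xlr5a). These are 19.0% and 9.52%, with a median log2 fold change of 0.08. Among the 513 tested X-linked genes other than Rhox genes, 6.04% were called higher and 2.53% lower. Magea5 (3 reads in each wild-type library) and Magea8 (4 and 3) reached the minimum mean of 10 only through the libraries labelled Bmal1-/-. Mageb16 had 303 and 252 in wild-type, and 111 and 117 in Bmal1-/-, and Xlr5a had 76.9 and 80.7, and 32.9 and 41.0.

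Markers of cell types in which Rhox genes are known, or which a culture could hold, were read as well. The naive mESC markers with a value (7 of 8 listed) summed to between 84386 and 85615 in every library. Each of the 7 still passed an adjusted p under 0.05 by limma, 3 higher and 4 lower. Among them were Nanog at 0.25 and Sox2 at -0.17 on the log2 scale. At that threshold 24% of all tested genes were higher and 28.6% lower, and with the fold threshold 5.75% and 1.45%. The 10 trophoblast markers summed to 410 and 391 in wild-type, and to 282 and 274 in Bmal1-/-: of 4 tested, 0 were called by the rule, and without the fold threshold Eomes and Cdx2 were lower and Ascl2 higher. Tpbpa was at 0 in every library, and Elf5 and Gcm1 had at most 3 reads. Without Eomes the sums were 139 and 129 in wild-type, and 118 and 137 in Bmal1-/-, which overlapped. The whole trophoblast sum was lower where Rhox6 and Rhox9 were lower, and its part in their difference was not tested.

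The 9 primitive endoderm markers summed to 178 and 195 in wild-type, and to 198 and 195 in Bmal1-/-, with Sox17 called higher and Sox7 lower, and Ttr at 0. Of the 7 primordial germ cell markers, Dazl was called higher and Prdm1 lower. Without the fold threshold 2 were higher and 4 lower, beside 24% and 28.6% of all tested genes. The lower ones included Dppa3 (-0.95), Nanos3 (-0.68) and Ddx4 (-0.45). The 6 fibroblast markers summed to 3696 and 3533 in wild-type, and to 1227 and 1203 in Bmal1-/-, and Dcn was at 0. Vim was called lower, and without it the other 5 summed to 69.5 and 75.4 in wild-type, and to 109.9 and 97.3 in Bmal1-/-.

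Among the genes whose values over the 4 libraries were most like those of Rhox6 were Dtd1, a tRNA deacylase, and Krt17, a keratin. Likeness was the Euclidean distance between log2(value + 1) profiles after subtraction of the wild-type mean, and both distances were 0.11. For Rhox9 the nearest were the prolactin receptor gene Prlr (0.42), Pdlim4 (0.47) and the X-linked Armcx3 (0.55). Rhox9 itself was at a distance of 0.80 from Rhox6. The genes named above are the nearest of all tested genes outside the cluster, so a larger distance for Rhox9 is no result about the pair.

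Bmal1 binds, with its partner Clock, to E-boxes, of which CACGTG is the best known form. Promoter sequences from RefSeq (GRCm38.p6, 300 bases around the annotated start) were given for Rhox1, Rhox5, Rhox10, Rhox11 and Rhox13, and not for Rhox6 and Rhox9. None of the 5 held CACGTG, which reads the same on both strands. The motif was in 5 of all 28 Rhox promoters (17.9%), all of them Rhox4 copies, against 7.15% of 32851 promoters. The number of CpG sites in the window, which DNA methylation acts on, was 0 in Rhox1, 5 in Rhox5 and Rhox13, 7 in Rhox11 and 9 in Rhox10, beside a median of 7 over all promoters.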

How the data were processed

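mRNA-seq libraries (TruSeq Stranded mRNA, paired 75-bp reads) from 2 wild-type and 2 Bmal1-/- cultures were compared. The authors aligned reads to mm9 (STAR 2.5.2b, with bcl2fastq 2.18.0.12 and cutadapt 1.9.1 in the submitters' processing notes) and deposited a normalized signal per gene, the read count divided by a TMM scaling factor (NOISeq). The counter, its annotation and its strand setting are not given in the sources used here. Deposited values were whole multiples of 1 number per library, so reads were recovered for 100% of the values (tolerance 0.01 of a read).

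Differences were computed with limma 3.58.1 in R 4.3.3 (intensity trend, no covariate) on log2(value + 1) of all genes that averaged at least 10, with Benjamini-Hochberg adjustment over all 14510 genes. Calls needed an absolute log2 fold change above 1 and an adjusted p under 0.05. The scripts were tested on simulated data. On whole reads, edgeR 4.0.16 called 886 genes higher and 205 lower, and DESeq2 1.42.0 called 711 and 151, against 835 and 211 by limma. The alternatives were 3 other filters, 2 other pseudocounts, 3 other scalings, limma without the trend, a replicate block, each library left out, both count tests, no fold threshold, 20 flanking genes on each side, and Rhox6 and Rhox9 summed.

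The Rhox genes, the gene lists and the tests were chosen with earlier results of these data known. Genes named are every Rhox gene considered, all repressor genes, other list genes that were called, the 5 largest flanking differences and the 3 nearest profiles to Rhox6 and Rhox9, of which 1 is not reported here. Some further genes with values were singled out after their values were seen: Hesx1, Esx1, Otx2, and the germline and marker genes named without passing the fold threshold. List genes were written by hand. Positions and coding sequences are from GENCODE vM1 (NCBIM37), and promoters from RefSeq (GRCm38.p6). Figures and tables were made with Python 3.11.15, numpy 2.4.6, pandas 2.3.3 and matplotlib 3.10.9. The expression of Rhox5, the raw reads and protein data were not analysed here.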

Additional observations from a re-analysis of the deposited data

How the results depend on the processing

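With 2 libraries per group and 12 to 71 reads per library for Rhox6 and Rhox9, the size of their differences is uncertain. The differences were negative under every alternative that gave a value (at a mean of at least 100 neither was kept). Both genes were chosen as lower in these same libraries, so that sign is no support for the direction. Leaving out each library in turn gave -1.75 to -1.54 for Rhox6 and -2.45 to -1.93 for Rhox9. A pseudocount of 10 gave -1.35 and -1.68, quantile normalization -1.90 and -2.50, and summing the pair -1.91. Rhox1 ranged from -0.38 under quantile normalization to 0.07 without wild-type replicate 2.

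The count of 6 paired-like genes became 10 with no filter (all higher), 10 at a mean of at least 1 (9 higher, with Otx2 lower) and 2 at a mean of at least 100. The count of 0 repressors became 17 with no fold threshold. The count of 0 flanking genes became 13 with no fold threshold, 2 with 20 genes on each side (Lonrf3 higher and Slc25a43 lower), and 1 with no filter (Gm9), at a mean of at least 1 (Gm9), under quantile normalization (Snora69) and by edgeR (Gm7598). With each library left out it ranged from 0 to 1, the 1 being Snora69 without wild-type replicate 1 and Gm7598 without Bmal1-/- replicate 2. Over the whole table, quantile normalization called 608 genes higher and 377 lower, against 835 and 211.

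A replicate block leaves the differences of Rhox6 (-1.65) and Rhox9 (-2.19) as they are by construction, since each group holds both numbers. It gave the same counts of repressor, flanking and paired-like genes, 0, 0 and 6. The labels number the experiments without saying that same-numbered libraries were made together, and their deviations correlated at -0.02 over 14510 genes and at 0.06 over the 7255 above the median level, so the pairing was not used. The alternatives for Rhox5 were not run.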
